A study of Mus musculus with 4 samples.

Results

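Dividing cells were sought among the immune cells of the mouse peritoneal cavity, and 149 of 32345 barcodes that passed the filters were taken as dividing, chosen by their own counts of 3 cell-cycle genes. A barcode stands for the content of 1 droplet, in most cases 1 cell. A barcode passed with at least 200 genes detected and under 10% mitochondrial counts, and it was taken as dividing where Mki67, Top2a and Birc5 together had 3 or more unique molecular identifiers (UMIs, each 1 captured transcript). Of these, 100 lay among 22327 barcodes of the KO library and 49 among 10018 barcodes of the WT library. Both libraries held CD45-positive cells sorted from lavage fluid of mice that ate high-fat food for 3 months, beginning when they were 4 weeks old, so the diet was common to both genotypes. KO mice were knockouts of 1 gene and WT mice were wild type. A B-cell receptor (BCR) library was made alongside each gene expression library. How many mice were pooled is not stated in the labels, and with 1 library per genotype no spread between mice could be estimated and no test between genotypes was made. All intervals below are 95% intervals that cover counting error only.

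A cell that divides first copies its DNA in S phase and then parts the chromosomes in mitosis, and each step has its own set of transcripts. Genes of S phase are switched on by E2F factors, whereas many mitotic genes carry a CHR element in the promoter that is bound by the MuvB complexes. In the peritoneal cavity, B-1 cells and resident macrophages are known to maintain themselves by local division. B-1 cells often carry heavy chains of the segments IGHV11-2 or IGHV12-3, which can bind phosphatidylcholine, a lipid of cell membranes.

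The marker genes fitted the label in most of these barcodes, but less well in WT than in KO. Mki67, a coat protein of mitotic chromosomes, had a UMI in 88 of 100 KO barcodes and 42 of 49 WT barcodes. Top2a, the topoisomerase that untangles replicated DNA, had one in 80 KO and 41 WT barcodes, and Birc5, a subunit of the chromosomal passenger complex, in 66 KO and 30 WT barcodes. These 3 genes chose the barcodes, so their counts are a description. Stmn1, a regulator of microtubules that the rule did not use, had a UMI in 87 of 100 KO barcodes and 36 of 49 WT barcodes, against 4.85% of other KO barcodes and 6.97% of other WT barcodes. The summed count of the 3 genes had a median of 7 (range 3 to 37) in KO and 5 (range 3 to 77) in WT.

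Many barcodes sat exactly on the threshold. With 3 UMIs of the 3 genes there were 23 barcodes in KO and 21 in WT, or 42.9% of the WT set. Among these, Stmn1 had a UMI in 73.9% of KO and 42.9% of WT barcodes, at 307 CPM in KO and 82.1 CPM in WT, where CPM is the UMI count of a gene in all barcodes of a set, divided by all UMIs of that set and multiplied by 1000000. Just below the threshold, at 2 UMIs, 85 KO and 64 WT barcodes had Stmn1 at 86.8 CPM in KO and 69.8 CPM in WT. At 5 UMIs or more, 69 KO and 26 WT barcodes had Stmn1 at 923 CPM in KO and 897 CPM in WT. The WT barcodes at 3 UMIs were thus close in Stmn1 to those just outside the rule, and the libraries were alike well inside it.

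Dividing barcodes were deep. Their median was 10345.5 UMIs in KO and 17761 UMIs in WT, against 3315 UMIs in other KO barcodes and 6377 UMIs in other WT barcodes. The WT library was the deeper per barcode in both sets, and a rule on a fixed number of UMIs takes more barcodes from a deeper library. How much of any difference between the genotypes comes from this was tested only by thinning and by other thresholds, whose values stand beside the results. The deposited matrices held 22516 barcodes and 103953298 UMIs in KO and 10087 barcodes and 81817635 UMIs in WT, over 32285 genes.

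**Figure D1:**
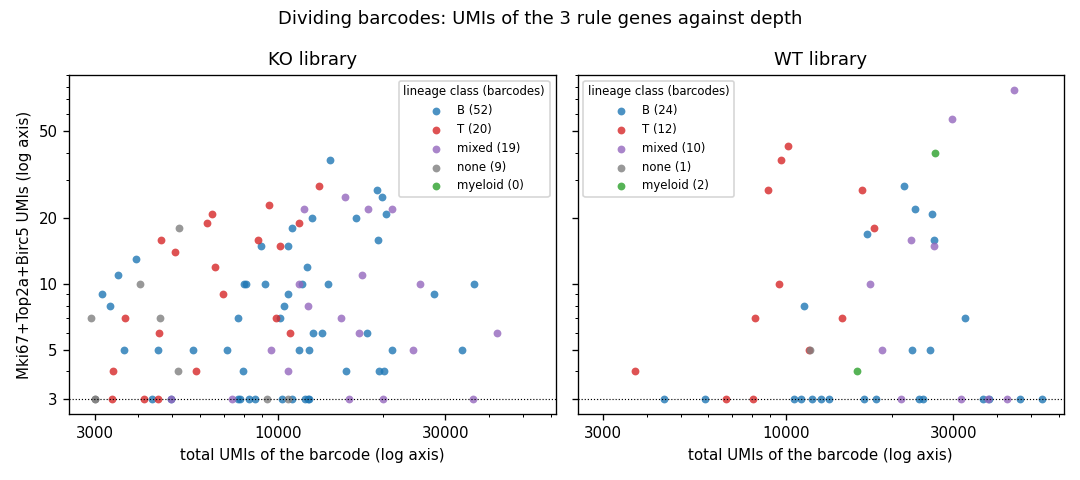
Total UMIs (horizontal, log scale) and UMIs of Mki67, Top2a and Birc5 together (vertical, log scale) for each dividing barcode, KO left and WT right, coloured by class, with the threshold of 3 UMIs as a dotted line. The KO barcodes have a median of 10345.5 UMIs and lie left of the WT barcodes, whose median is 17761, and 23 of 100 KO and 21 of 49 WT barcodes lie on the threshold.

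Near-identical barcodes were found in the KO library and bear on every KO count. For each pair of dividing barcodes an index of dispersion was computed over genes with 10 or more UMIs in the pair, and a value of 1 means that the profiles differ by sampling noise alone. In KO, 25 of 4950 pairs had an index of 1.2 or less, down to 0.838, and the next pair had 1.25. In WT, 0 of 1176 pairs did, and the lowest index was 1.56. The index falls with fewer UMIs, and with each barcode thinned to 3000 UMIs 51 pairs of KO and 6 pairs of WT barcodes had an index of 1.2 or less, the lowest being 0.657 in KO and 0.991 in WT. The median over all pairs was 4.25 in KO and 5.25 in WT. These 25 pairs joined 43 of the 100 KO barcodes into 20 groups of at most 3, which leaves 77 units where each group is counted once.

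Some near-identical pairs had the same rare features. In 19 of the 25 pairs both barcodes were of the same class, and the rest joined barcodes of unlike class. Of the 25 pairs, 8 had a BCR heavy chain in both barcodes, and in 7 of these the heavy chain with most UMIs was the same. In the remaining pair, 1 barcode held 4 chains, which included both of the 2 chains of the other barcode. In 1 pair, an IgA heavy chain of IGHV1-22 came with 302 and 277 UMIs of Jchain, the joining chain of secreted IgA and IgM. In another, Lyz2, the lysozyme of myeloid cells, had 300 and 259 UMIs. Another pair, of T cells, had 12 and 11 UMIs of Cd163l1, a scavenger receptor of gamma-delta T cells. Across the whole libraries, 2217 of 2679 KO clones seen in exactly 2 barcodes had an index of 1.2 or less (82.8%, median 1.04), against 75 of 247 WT clones (30.4%, median 2.09). Near-identical barcodes were therefore not particular to dividing cells. The shares of 82.8% and 30.4% are not matched for depth, with which the index changes. Barcodes in clones of 2 to 9 had a median of 2778 UMIs in KO and 8118 UMIs in WT. Daughter cells of 1 division and 1 cell read under several barcodes cannot be told apart here, so KO results are given with every barcode and, where the value moves, with 1 barcode per group.

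**Figure D2:**
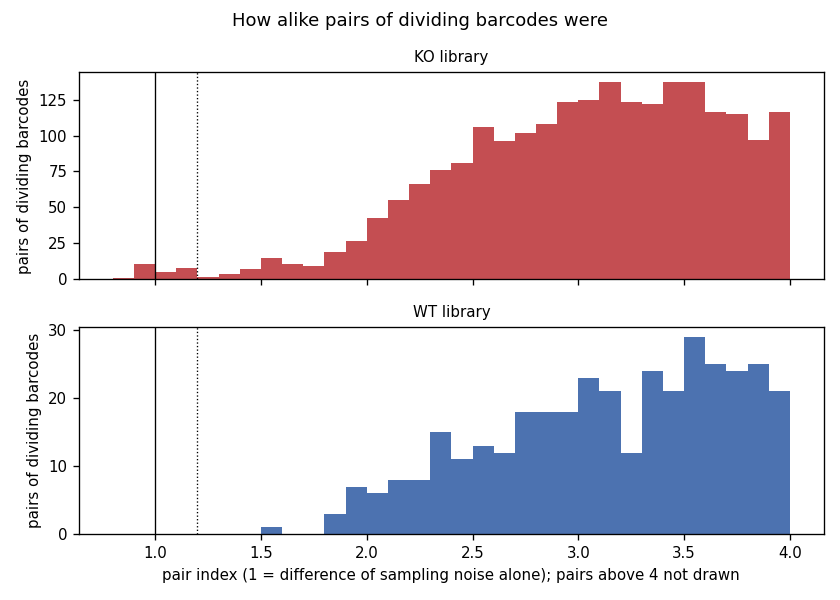
Number of pairs of dividing barcodes (vertical) by index of dispersion (horizontal, no unit), KO above WT, with lines at 1 and 1.2 and pairs above 4 not drawn (2750 of 4950 in KO and 813 of 1176 in WT). In KO, 25 pairs lie at or below 1.2 and 38 at or below 1.5, with no empty stretch between them, and no WT pair lies below 1.56.

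The order of the dividing share between the libraries changed with the rule. Dividing barcodes were 0.448% of KO barcodes (interval 0.365 to 0.544%) and 0.489% of WT barcodes (0.362 to 0.646%), a KO to WT ratio of 0.916 (0.651 to 1.29). With 1 barcode per near-identical group the KO share was 0.345% and the ratio 0.705 (0.493 to 1.01). Groups were formed among dividing barcodes alone, and the 22327 KO barcodes of the denominator were not grouped. This share and this ratio are therefore low, by an amount that was not computed. At a threshold of 2 UMIs the ratio was 0.735 (0.582 to 0.927), and at 5 UMIs it was 1.19 (0.759 to 1.87). After every barcode was thinned to 2000 UMIs, 30 KO and 10 WT barcodes met the rule, 0.181% in KO and 0.106% in WT, and the ratio was 1.70. No direction between the genotypes can be read from these shares.

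B cells formed about equal parts of the dividing set in both genotypes. A class was given by 2 or more UMIs of 1 lineage gene: Cd79a, the signalling chain of the B-cell receptor; Cd3e, a chain of the T-cell receptor complex; or Csf1r, the receptor of macrophage growth factor. In KO, 52 of 100 dividing barcodes were B (52%, interval 41.8 to 62.1%), 20 were T, 19 carried more than 1 lineage gene and 9 carried none. In WT, 24 of 49 were B (49.0%), 12 were T (24.5%), 2 were myeloid, 10 were mixed and 1 carried none. Cd79a had a median of 36 UMIs in KO and 55.5 UMIs in WT dividing B barcodes, and Cd3e had 6.5 UMIs in KO and 7.5 UMIs in WT dividing T barcodes.

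T barcodes met the rule more often than B barcodes in both libraries. In KO, 20 of 2082 T barcodes were dividing (0.961%, interval 0.588 to 1.48%), against 52 of 15640 B barcodes (0.332%, 0.248 to 0.436%), a T to B ratio of 2.89 (1.73 to 4.83). In WT, 12 of 1594 T barcodes (0.753%, 0.390 to 1.31%) and 24 of 6761 B barcodes (0.355%, 0.228 to 0.528%) were dividing, a T to B ratio of 2.12 (1.06 to 4.23). The dividing T barcodes reached the rule with fewer UMIs in all, a median of 6371.5 in KO and 9584 in WT, than the dividing B barcodes with 10959 in KO and 22253 in WT. After thinning to 2000 UMIs, the T to B ratio was 7.50 in KO and 21.2 in WT, the WT value resting on 1 B barcode. The WT interval included 1 at a threshold of 2 UMIs, with a ratio of 1.54 (0.970 to 2.45), and where 1 UMI of a lineage gene gave the class, with a ratio of 1.85 (0.909 to 3.77). The KO ratio at these settings was 2.61 (1.76 to 3.87) and 2.38 (1.35 to 4.20).

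Between the genotypes, the interval of each rate ratio within a class included 1. The KO to WT ratio of the dividing rate was 0.937 (interval 0.578 to 1.52) for B and 1.28 (0.626 to 2.60) for T barcodes. With 1 barcode per near-identical group, the KO rate was 0.249% for B and 0.768% for T barcodes. The other KO barcodes of each class were not grouped, so these rates are low as well.

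**Figure D3:**
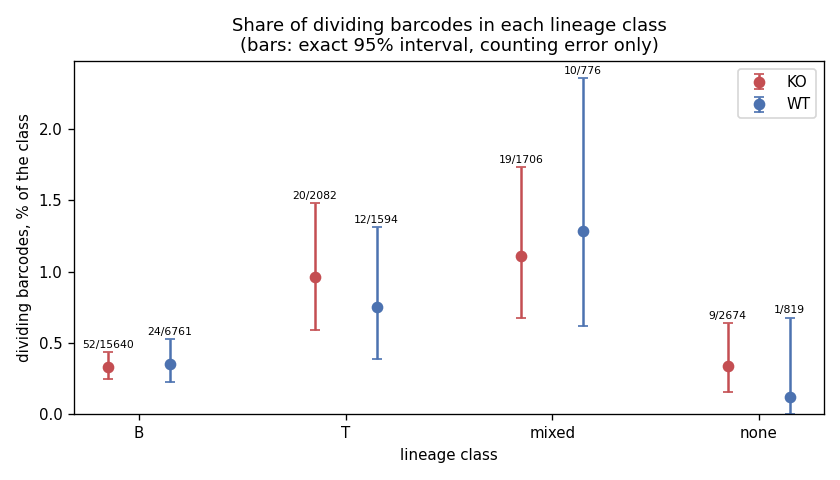
Dividing barcodes as a percentage of all barcodes of the class (vertical) for the B, T, mixed and no-lineage classes, KO left of WT, with exact 95% intervals and the counts printed. T barcodes lie above B barcodes in both libraries (0.961% and 0.332% in KO, 0.753% and 0.355% in WT).

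Barcodes with more than 1 lineage gene had high counts. Dividing mixed barcodes had a median of 15952 UMIs in KO and 28086.5 UMIs in WT, against 7590 UMIs in other KO and 13278 UMIs in other WT mixed barcodes. Of the mixed dividing barcodes, 15 in KO and 9 in WT combined Cd79a with Cd3e. Droplets that held 2 cells and cells that express both genes were not told apart, and the mixed class is left out of the gene comparisons. A score-based removal of likely doublets took 18 of 100 KO and 2 of 49 WT dividing barcodes.

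Few barcodes were myeloid, and 2 of them were dividing. In KO, 0 of 225 myeloid barcodes met the rule, which allows a share of up to 1.33%, and in WT 2 of 68 did (2.94%, interval 0.358 to 10.2%). One of the 2 WT barcodes had 1568 Lyz2 UMIs, 40 UMIs of the rule genes, 6 UMIs of Timd4 and 2 UMIs of Gata6, markers of resident peritoneal macrophages, and 54 UMIs of the complement gene C1qb. The other had 423 Lyz2 UMIs and 4 UMIs of the rule genes, with Timd4, Gata6 and C1qb at 0. A further WT barcode with 77 UMIs of the rule genes, the highest of all, had 27 UMIs of Csf1r and 942 of Lyz2 but also 36 of Cd79a, and so fell in the mixed class. The KO mixed class held such barcodes too: 2 dividing ones combined Csf1r with Cd79a and 2 combined it with Cd3e. The 2 with Cd3e were a near-identical pair with an index of 0.917. Of those with Cd79a, 1 with 3 UMIs of the rule genes had 260 UMIs of Lyz2, 16 of C1qb, 2 of Gata6 and 2 of Cd79a. Of the pair with Cd3e, 1 barcode with 5 UMIs of the rule genes had 183 UMIs of Lyz2, 20 of C1qb and 3 of Cd3e.

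Some dividing barcodes without a lineage gene carried receptors of natural killer cells. Ncr1, Klrb1c and Klre1 had 2 or more UMIs together in 3 of 9 such KO barcodes and in the 1 WT barcode. Among all barcodes without a lineage gene, 495 of 2674 in KO and 321 of 819 in WT met this too. A single Cd3e UMI was present in 5 of the 9 KO barcodes. With 1 barcode per near-identical group, 5 of the 9 remained, 3 of them with Cd3e. Some of the 9 were near-identical to a barcode of the T class.

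Summed over barcodes, dividing B cells carried many transcripts of DNA replication at several times the level of other B cells, in both genotypes. Not every barcode did: in 11 of 52 KO and 8 of 24 WT dividing B barcodes the S-phase genes together were at or below their level in other B barcodes (788 CPM in KO and 778 CPM in WT), and in 1 KO and 4 WT barcodes the G2 and M genes were so too. The choice of barcodes fixes this direction, so the values describe the cells and support nothing. A gene was called here where the interval of its CPM ratio lay wholly above 2 or below the inverse, among genes at 50 CPM or more. Of the genes compared, 4.51% were called higher in dividing than in other KO B barcodes (140 of 3107) and 2.38% in WT (72 of 3020), and 1.03% in KO (32) and 1.19% in WT (36) were called lower. Of the genes called higher, 49 were shared, 35% of the KO calls and 68.1% of the WT calls. Of those called lower, 16 were shared, 50% of the KO calls and 44.4% of the WT calls. The S-phase list had 25 of 29 compared members called higher in KO, with a median log2 ratio of 2.81, and 20 of 27 in WT, with a median of 2.91, beside medians over all genes of 0.03 in KO and 0.08 in WT.

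Members of this list differed in their level outside division. Pclaf, a partner of the sliding clamp PCNA, was at 420 CPM in dividing and 0.355 CPM in other KO B barcodes, and at 217 CPM in dividing and 0.502 CPM in other WT B barcodes. Rrm2, the regulated subunit of ribonucleotide reductase, was at 222 (dividing) against 1.09 CPM (other) in KO and 116 (dividing) against 0.935 CPM (other) in WT. Pcna itself was at 235 (dividing) against 41.6 CPM (other) in KO and 178 (dividing) against 44.9 CPM (other) in WT, and Mcm6, a subunit of the replicative helicase, at 190 (dividing) against 35.1 CPM (other) in KO and 212 (dividing) against 36.7 CPM (other) in WT. Pclaf and Rrm2 were thus near 1 CPM or below in other B barcodes, whereas Pcna and Mcm6 were well above that.

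Mitotic genes were also higher in dividing B barcodes, again by the choice of barcodes. The list of mitotic kinases, cyclins and their regulators had 11 of 14 compared members called higher in dividing KO B barcodes (median log2 ratio 5.42), against 1 of 6 in WT (median 4.46). Members reached the 50 CPM needed for a call mainly through the dividing barcodes, the medians cover the 24 members in KO and 19 in WT that reached 10 CPM, and with the 50 CPM floor the WT median was 0.29, so these values are not compared between the libraries. Ccnb2, a mitotic cyclin, was at 130 CPM in dividing and 0.641 CPM in other KO B barcodes, and at 31.9 CPM in dividing and 0.502 CPM in other WT B barcodes. Cdk1, the kinase that drives mitosis, was at 62.7 (dividing) against 0.273 CPM (other) in KO and at 18.7 (dividing) against 0.243 CPM (other) in WT. Ube2c, the ubiquitin-conjugating enzyme of the anaphase-promoting complex, was at 168 (dividing) against 0.845 CPM (other) in KO and 39.4 (dividing) against 0.901 CPM (other) in WT. In other B barcodes all 3 genes were under 1 CPM in both libraries.

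The promoters of rule genes and of mitotic genes are shown because these genes chose the cells or moved with them. Each window holds the 250 bases before the start of the RefSeq transcript on the mouse build GRCm38.p6, 5′ to 3′ on the gene's strand. Capitals mark the CHR letters TTTGAA and their reverse, which reads TTCAAA. They also mark the CCAAT box and its reverse, which reads ATTGG.
Mki67, chr7:135716380-135716629, minus strand: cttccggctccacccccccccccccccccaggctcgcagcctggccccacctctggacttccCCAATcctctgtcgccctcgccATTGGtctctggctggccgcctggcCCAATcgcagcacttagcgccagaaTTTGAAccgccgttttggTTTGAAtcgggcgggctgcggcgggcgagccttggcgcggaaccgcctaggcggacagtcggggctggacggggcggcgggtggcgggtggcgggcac
Top2a, chr11:99024190-99024439, minus strand: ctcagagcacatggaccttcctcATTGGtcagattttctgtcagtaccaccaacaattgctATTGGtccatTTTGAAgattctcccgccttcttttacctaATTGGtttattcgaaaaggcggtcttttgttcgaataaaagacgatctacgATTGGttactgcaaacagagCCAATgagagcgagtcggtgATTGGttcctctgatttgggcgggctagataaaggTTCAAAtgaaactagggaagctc
Birc5, chr11:117848987-117849236, plus strand: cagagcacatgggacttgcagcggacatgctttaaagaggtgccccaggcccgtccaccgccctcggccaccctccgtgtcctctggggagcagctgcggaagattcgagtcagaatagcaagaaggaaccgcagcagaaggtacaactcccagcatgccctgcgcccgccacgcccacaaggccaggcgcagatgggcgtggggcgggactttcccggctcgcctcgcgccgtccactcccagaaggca
Cdk1, chr10:69352913-69353162, minus strand: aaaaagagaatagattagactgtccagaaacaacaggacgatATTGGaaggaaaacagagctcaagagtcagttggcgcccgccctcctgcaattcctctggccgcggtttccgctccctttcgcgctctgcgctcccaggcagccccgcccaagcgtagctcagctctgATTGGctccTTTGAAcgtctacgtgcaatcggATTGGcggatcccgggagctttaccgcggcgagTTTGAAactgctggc
Ube2c, chr2:164769679-164769928, plus strand: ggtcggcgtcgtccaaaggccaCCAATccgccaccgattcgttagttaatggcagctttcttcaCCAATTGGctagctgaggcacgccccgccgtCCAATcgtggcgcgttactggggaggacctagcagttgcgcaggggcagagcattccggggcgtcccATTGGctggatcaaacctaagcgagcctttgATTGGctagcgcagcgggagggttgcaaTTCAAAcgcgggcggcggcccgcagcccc
Mki67 and Top2a each held 2 CHR letters, with 3 CCAAT boxes in Mki67 and 6 in Top2a. Cdk1 held 2 CHR letters, the nearer 15 bases before the start, and 3 CCAAT boxes, and Ube2c held 1 CHR and 6 CCAAT boxes. In the Birc5 window neither set of letters occurred, which says nothing of the factors. Among all 32851 windows of 27025 genes, CHR letters were in 16.0%, CCAAT letters in 33.8% and both in 5.55%. Of 5 genes of the mitotic lists called higher in dividing B barcodes of both libraries, 4 had an entry, and 3 of their 4 windows (75%) held both. Of 18 S-phase genes called in both, 14 had an entry, and 2 of their 19 windows (10.5%) held CHR letters, 11 (57.9%) CCAAT letters and 6 (31.6%) one of the E2F letters TTCCCGC or TTGGCGC on either strand, beside 5.62% of all windows. The E2F letters TTGGCGC can share their first letters with ATTGG. These counts describe windows and are no evidence of binding.

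In the set the rule chose, dividing KO B barcodes had more mitotic transcripts than dividing WT B barcodes. The rule sets part of this, since a fixed 3 UMIs is a smaller share of the deeper WT barcodes, and the rule genes themselves, at 743 CPM in KO and 326 CPM in WT, are no support for it. A gene was called here where the interval of its KO to WT ratio lay wholly above 1.5 or below the inverse, and 2.67% of 3150 genes were called higher (84) and 0.984% lower (31). The mitotic list had 23 of 24 measured members higher in KO and 8 of 14 compared members called, with a median log2 ratio of 1.01. The kinetochore list had 27 of 28 higher and 3 of 7 called (median 1.25). The spindle list had 25 of 28 higher and 5 of 13 called (median 1.28), and the chromatin list 33 of 37 and 7 of 29 (median 0.70). Members were measured at 10 CPM or more, and compared at 50 CPM or more, in either library. At 10 CPM, WT B barcodes, dividing or other, had 19 members of each of the mitotic, kinetochore and spindle lists. Some members thus entered only through KO, where they were high, so these counts and medians are a description and no support. The median over all genes was 0.01, with 4039 of 7936 genes higher. The S-phase list had 36 of 45 members higher and 0 of 31 compared members called, with a median of 0.31.

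Single genes of mitosis describe the difference in this set. In WT, Ube2c, Ccnb2, Tpx2, Fbxo5, Cdc20, Cep55 and Esco2 lay under the CPM floor for a call. These genes entered the comparison only through KO, where they were high. Fbxo5, Cep55, Esco2, Cdc20 and Tpx2 were also named for the size of their ratio. The ratios of these genes are therefore a description and no support. Ube2c was at 168 CPM (interval 137 to 203) in KO and 39.4 CPM (24.4 to 60.2) in WT dividing B barcodes, a ratio of 4.26 (2.65 to 7.16). Ccnb2 was 4.08 times as high (2.40 to 7.34), and its UMIs lay in 32 of 52 KO and 5 of 24 WT barcodes. Tpx2, which activates the mitotic kinase Aurora A, was at 84.6 CPM in KO and 18.7 CPM in WT, a ratio of 4.51 (2.28 to 9.94). Fbxo5, an inhibitor of the anaphase-promoting complex, was at 56.4 CPM in KO and 7.50 CPM in WT, a ratio of 7.52 (2.70 to 29.1), and Cdc20, an activator of the same complex, at 70.5 CPM in KO and 15.0 CPM in WT. Cep55, needed to part the daughter cells, was at 53.3 CPM in KO and 7.50 CPM in WT, and Esco2, an enzyme of sister chromatid cohesion, at 76.8 CPM in KO and 15.0 CPM in WT. H2afx, a histone variant, was at 426 CPM in KO and 127 CPM in WT, a ratio of 3.34 (2.56 to 4.43). Genes of replication lay closer together, with Mcm6 at 190 CPM in KO and 212 CPM in WT, a ratio of 0.895 (0.687 to 1.17), and Dut, which clears dUTP, at 282 CPM in KO and 247 CPM in WT.

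The size of this difference moved with the threshold of the rule. With 5 UMIs or more of the rule genes, 37 KO and 9 WT B barcodes remained, and the median log2 ratio was 0.45 for the mitotic, 0.38 for the kinetochore and 0.36 for the spindle list, while that of the S-phase list was -0.31. At that threshold Cdc20 had a ratio of 1.98 (0.860 to 5.32) and Tpx2 one of 1.93 (0.921 to 4.52), and neither was called. Fbxo5, at 3.90 (1.40 to 15.1), Cep55, at 3.04 (1.06 to 11.9), and Esco2, at 2.49 (1.17 to 6.12), were not called there either. Of 17 genes named for the size of their KO to WT ratio, 12 lost the call at 5 UMIs, 11 at 2 UMIs, and 11 of 16 after thinning. In the main set, 21 of 49 WT barcodes had exactly 3 UMIs and the median in WT B barcodes was 3, against 6.5 in KO B barcodes. The difference in mitotic transcripts and the difference in depth at which the rule is met were not separated.

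The balance of phases differed between the libraries in B barcodes. Summed over dividing B barcodes, genes of S phase had 3972 CPM and genes of G2 and M phase 4285 CPM in KO, an S to G2M ratio of 0.927 (interval 0.878 to 0.979). In WT they had 3311 CPM and 1973 CPM, a ratio of 1.68 (1.55 to 1.81). More S than G2M transcripts were found in 27 of 52 KO and 16 of 24 WT B barcodes. In T barcodes the ratio was 0.966 in KO and 0.943 in WT. With 1 barcode per near-identical group, the KO B ratio was 0.985, and where the rule was applied after thinning it was 0.435 in KO over 12 barcodes and 1.08 in WT over 1 barcode. The rule itself takes genes of late S, G2 and M phase, so the balance is partly set by it.

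**Figure D4:**
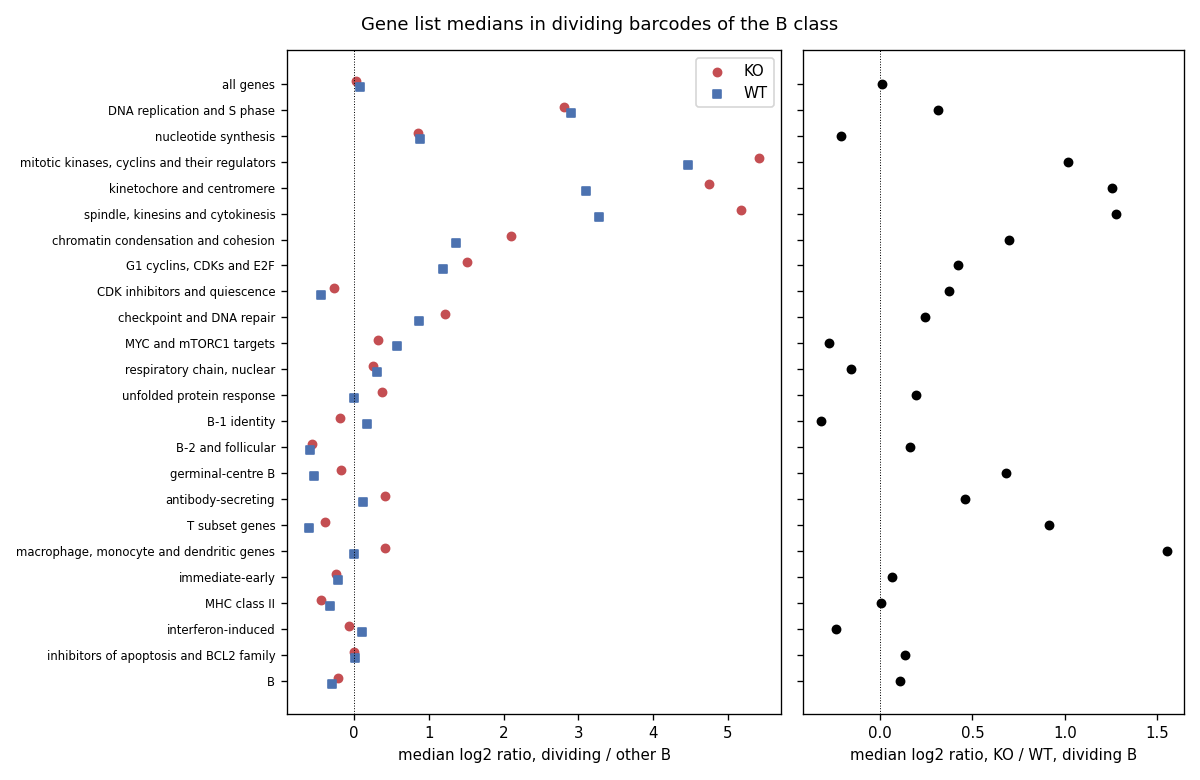
Median log2 ratio (horizontal) of each gene list in B barcodes, dividing against other with KO as dots and WT as squares (left panel) and KO against WT within dividing barcodes (right panel). Cell-cycle lists lie far right in the left panel, and in the right panel the kinetochore (1.25), spindle (1.28) and mitotic (1.01) lists lie above the S-phase list (0.31).

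An inhibitor of the cycle was also higher in KO. Cdkn1a, which encodes the CDK inhibitor p21, was at 76.8 CPM in dividing KO B barcodes and 13.1 CPM in dividing WT B barcodes, a ratio of 5.85 (interval 2.64 to 15.3), with UMIs in 23 of 52 KO and 5 of 24 WT barcodes. No barcode held more than 5 of its 49 KO UMIs. In WT, Cdkn1a lay under the CPM floor for a call, so it entered the comparison only through KO. It was also named for the size of its ratio, which is therefore a description and no support. In other B barcodes Cdkn1a was at 24.8 CPM in KO and 21.1 CPM in WT. In dividing T barcodes it was at 280 CPM in KO and 120 CPM in WT. At the threshold of 5 UMIs the B ratio was 2.46 (1.02 to 7.16), which was no longer called. The CDK inhibitor and quiescence list as a whole had 15 of 21 members higher and 1 called.

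Of growth genes, 1 was called lower in KO. The list of MYC and mTORC1 targets had 1 of 27 compared members called lower in KO dividing B barcodes, beside 0.984% of all genes, and 29 of 30 measured members had a KO to WT ratio below 1, with a median log2 ratio of -0.28. Nme1, a nucleoside diphosphate kinase, was at 255 CPM in KO and 431 CPM in WT, a ratio of 0.593 (0.482 to 0.727). Hspe1, a mitochondrial chaperonin, was at 255 CPM in KO and 420 CPM in WT, and the glycolytic enzyme Gapdh at 788 CPM in KO and 1124 CPM in WT. Nolc1, a nucleolar protein, was at 59.5 CPM in KO and 137 CPM in WT, and Irf2bp2, a transcriptional repressor, at 81.5 CPM in KO and 264 CPM in WT, a ratio of 0.308 (0.220 to 0.427). For Gapdh and Irf2bp2 the other B barcodes differed in the same direction, with Gapdh at 450 CPM in KO and 634 CPM in WT and Irf2bp2 at 124 CPM in KO and 357 CPM in WT. At the threshold of 5 UMIs the list median was -0.70.

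No gene of the lists for resting B cells was called in dividing against other B barcodes, though most lay below 0 on the log2 scale. The B-2 and follicular list had 15 of 16 measured members with a ratio below 1 in KO (median log2 ratio -0.56) and 16 of 16 in WT (median -0.59), beside medians over all genes of 0.03 in KO and 0.08 in WT. Ccr7, the receptor that guides lymphocytes to lymph nodes, was at 197 CPM in dividing and 415 CPM in other KO B barcodes, and at 182 CPM in dividing and 389 CPM in other WT B barcodes. Fcer2a, the low-affinity IgE receptor, was at 37.6 (dividing) against 90.9 CPM (other) in KO and 24.4 (dividing) against 77.8 CPM (other) in WT, and the anti-proliferative gene Btg1 at 406 (dividing) against 813 CPM (other) in KO and 313 (dividing) against 618 CPM (other) in WT. The MHC class II list had 10 of 10 members with a ratio below 1 in KO (median -0.44) and 8 of 10 in WT (median -0.33).

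B-1 identity genes differed little. Their median log2 ratio of dividing to other B barcodes was -0.19 in KO (14 of 18 lower) and 0.16 in WT (14 of 18 higher), with 0 called in either. Between the genotypes, 14 of 18 were lower in KO dividing B barcodes, with a median of -0.32 and 0 called. Nfatc1, a calcium-regulated factor needed by B-1 cells, was at 139 CPM in KO and 221 CPM in WT, and the calcium-binding protein S100a6 at 1999 CPM in KO and 2777 CPM in WT. Cd9, a tetraspanin of B-1 cells, was found in 34 of 52 KO and 20 of 24 WT dividing B barcodes, against 26.2% of other KO and 41.5% of other WT B barcodes, which were shallower.

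Transcripts of other cell types in the B class lay in few barcodes. Lyz2 was at 998 CPM in KO and 63.7 CPM in WT dividing B barcodes, but 4 of 52 KO barcodes, 2 units after grouping, held all but 13 of its 637 KO UMIs, and 1 of 24 WT barcodes held 33 of 34. Without these barcodes it was at 22.8 CPM in KO and 1.92 CPM in WT, and with likely doublets removed its KO to WT ratio was 0.349. The macrophage and monocyte markers Csf1r, Adgre1, Lyz2, Fcgr1, Cd68 and C1qa together had 1130 CPM in KO, with Fcgr1 at 0, and 101 CPM in WT, with Csf1r, Fcgr1 and C1qa at 0. Apoe, a lipid carrier made by macrophages, was at 243 CPM in KO and 54.3 CPM in WT and followed Lyz2, since the 2 barcodes of the Lyz2 pair held 56 and 50 of its 155 KO UMIs. These barcodes also held 36 and 23 UMIs of Pf4, a chemokine of platelets and macrophages, of 61 in all.

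Jchain, a mark of antibody secretion, lay mainly in 1 KO clone. It was at 989 CPM in KO and 3.75 CPM in WT dividing B barcodes, and the IgA pair of IGHV1-22 held 302 and 277 of the 631 KO UMIs.

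The surrogate light chain was found in 1 dividing WT barcode. Igll1, part of the surrogate light chain that precursor B cells use before they have a light chain of their own, had 39 UMIs in this barcode and 0 in the other 23 dividing WT B barcodes. The same barcode had 15 UMIs of Vpreb1, the partner of Igll1, 19 of Vpreb3 and 8 of Il7r, the growth receptor of B-cell precursors, and 21 UMIs of the rule genes. Its Rag1 and Dntt counts were 0. Vpreb3 was not particular to it, with UMIs in 14 of 52 KO and 5 of 24 WT dividing B barcodes. With 1 barcode kept per near-identical group, 7 KO barcodes had Vpreb3. Rag1, an enzyme of receptor gene recombination, had 1 UMI in each of 2 KO dividing B barcodes and none in 15588 other KO B barcodes. Both of these 2 barcodes belonged to near-identical groups whose deepest barcode had no Rag1, so 0 remained with 1 barcode per group. The heavy chain of the WT barcode with Igll1 used IGHV1-81 with an IgM constant region, and no light chain was recovered.

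Dividing T cells carried the cell-cycle transcripts described for B cells. In KO, 6.41% of 3929 genes were called higher in dividing than in other T barcodes (252) and 0.458% lower (18), again by choice of the barcodes. WT had fewer than 20 dividing T barcodes, and no calls were made there. Stmn1 was at 1846 CPM in KO and 1264 CPM in WT dividing T barcodes, Ube2c at 136 CPM in KO and 200 CPM in WT, and Ccnb2 at 115 CPM in KO and 152 CPM in WT. The KO to WT ratio was 1.46 (interval 1.19 to 1.79) for Stmn1, 0.682 (0.355 to 1.29) for Ube2c and 0.756 (0.364 to 1.55) for Ccnb2. Fbxo5 was at 108 CPM in KO and 104 CPM in WT. For Ube2c, Ccnb2 and Fbxo5 the KO to WT interval included 1 in T barcodes, unlike in B barcodes, and the difference between the classes was not tested.

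Among the genes called lower in dividing KO T barcodes were Ccr7, Bach2 and Lef1, which naive T cells express. The T subset list as a whole had 18 members higher and 16 lower (median log2 ratio 0.08), with 1 called higher and 3 lower. Ccr7 was at 7.18 CPM in dividing and 235 CPM in other KO T barcodes, the repressor Bach2 at 7.18 (dividing) against 85.3 CPM (other) and the naive T-cell factor Lef1 at 43.1 (dividing) against 199 CPM (other). In WT, Ccr7 was at 208 (dividing) against 309 CPM (other), Bach2 at 80.0 (dividing) against 91.7 CPM (other) and Lef1 at 200 (dividing) against 253 CPM (other). Between the genotypes, Ccr7 in dividing T barcodes had a KO to WT ratio of 0.0345 (interval 0.000842 to 0.210). These values rest on 20 KO barcodes in 16 units and 12 WT barcodes. Of 6 alternatives, Ccr7 kept its KO call in 6, Lef1 in 4 and Bach2 in 2.

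Ccr2 and Nkg7 were detected in most dividing T barcodes. Ccr2, a receptor for entry into inflamed tissue, was found in 16 of 20 KO and 9 of 12 WT dividing T barcodes, against 29.4% of other KO and 27.6% of other WT T barcodes. Nkg7, a granule protein, was in 16 KO and 11 WT dividing T barcodes, against 61.0% and 57.5% of other KO and WT T barcodes. Ccr2 was in 3.57% and Nkg7 in 5.84% of other KO B barcodes, which should lack both and had a median of 3498.5 UMIs. Dividing T barcodes were deeper than other T barcodes, and the shares are not corrected for this. Scaled to depth, Ccr2 was at 251 CPM in dividing and 193 CPM in other KO T barcodes, and at 144 CPM in dividing and 127 CPM in other WT T barcodes. Nkg7 was at 977 (dividing) against 1035 CPM (other) in KO and 1128 (dividing) against 789 CPM (other) in WT.

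Subset markers were spread over several kinds of T cell. Cd8b1 was in 3 of 20 KO and 5 of 12 WT dividing T barcodes, Cd4 in 4 KO and 3 WT, and Foxp3, the factor of regulatory T cells, in 3 KO and 0 WT barcodes, where 0 of 12 allows a share of up to 25%. Gata3, a factor of type 2 helper cells, was in 8 KO and 1 WT barcode. Cd163l1 was in 3 KO barcodes, 2 of them the near-identical pair, and Il17a, the cytokine of type 17 cells, had 28 UMIs in 1 other KO barcode and 0 in the rest. Gzmb, a cytotoxic protease, was in 4 KO and 5 WT barcodes. MHC class II transcripts in KO T barcodes lay mainly in 1 barcode, which held 69.4% of the 1125 UMIs of Cd74, H2-Aa, H2-Ab1 and H2-Eb1, against 9 UMIs in all WT T barcodes.

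The heavy chains of dividing cells differed between the 2 libraries. A heavy chain was recovered for 32 of 100 KO and 23 of 49 WT dividing barcodes of all classes, mixed included. Of these, 3 of 32 in KO (9.38%, interval 1.98 to 25.02%) and 14 of 23 in WT (60.9%, 38.5 to 80.3%) used IGHV11-2 or IGHV12-3. Among other barcodes the share was 10.6% in KO (1360 of 12813) and 18.3% in WT (1072 of 5866). The ratio of dividing to other was 0.883 (0.300 to 2.60) in KO and 3.33 (2.39 to 4.64) in WT, and the KO to WT ratio among dividing barcodes was 0.154 (0.0500 to 0.475). For IGHV11-2 alone the ratio of dividing to other was 2.19 (0.743 to 6.45) in KO and 4.22 (2.40 to 7.44) in WT. V genes were read from a separate library and were not used by the rule. In the B class alone, 2 of 27 KO (7.41%) and 9 of 15 WT (60%, 32.3 to 83.7%) dividing heavy chains used IGHV11-2 or IGHV12-3. There the ratio of dividing to other was 0.701 (0.184 to 2.66) in KO and 3.44 (2.26 to 5.22) in WT. Whether the heavy chain and the rule genes of a mixed barcode came from 1 cell was not tested.

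Rates within each kind of heavy chain, over all classes with the mixed class included, were as follows. Of barcodes with IGHV11-2 or IGHV12-3, 3 of 1363 in KO (0.220%, interval 0.045 to 0.642%) and 14 of 1086 in WT (1.29%, 0.707 to 2.15%) were dividing, a KO to WT ratio of 0.171 (0.0492 to 0.593). For IGHV11-2 alone the rate was 0.543% in KO (3 of 552) and 1.63% in WT (8 of 491), a ratio of 0.334 (0.0890 to 1.25) whose interval included 1. Of barcodes with any other V segment, 29 of 11482 in KO (0.253%, 21 units) and 9 of 4803 in WT (0.187%) were dividing, a ratio of 1.35 (0.639 to 2.85). Barcodes with IGHV11-2 or IGHV12-3 had a median of 4913 UMIs in KO and 9836 in WT, against 3211 UMIs in KO and 6277 UMIs in WT for other V segments, and the part of depth in these rates was not tested. At 5 UMIs or more the share was 2 of 22 in KO and 8 of 12 in WT, and after thinning 1 of 8 in KO and 2 of 3 in WT. With 1 KO barcode per near-identical group it was 3 of 24.

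**Figure D5:**
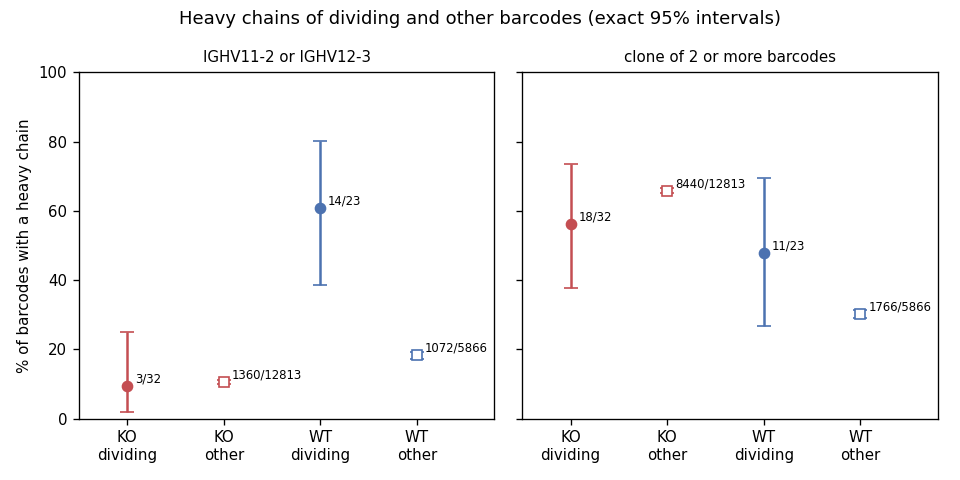
Share of barcodes with a heavy chain that used IGHV11-2 or IGHV12-3 and share in clones of 2 or more barcodes (vertical, percent), for KO dividing, KO other, WT dividing and WT other barcodes, with exact 95% intervals. The WT dividing barcodes reach 60.9% for IGHV11-2 or IGHV12-3, and the KO dividing (9.38%), KO other (10.6%) and WT other (18.3%) barcodes lie lower. Barcodes of all classes are drawn, mixed included, and clone sizes count every barcode, near-identical ones included.

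The IGHV11-2 receptors of dividing cells were close variants of 1 sequence. The junction (CDR3) of each is given 5′ to 3′, because dividing barcodes of the 2 genotypes shared the first and those of WT held 4 variants of it. Whether other KO barcodes held these variants was not looked up. In the variants, capitals mark the bases that differ from the first sequence, with positions counted from 1 at its first base. All lie in the heavy-chain locus on chromosome 12 and were joined to IGHJ1 and paired with the light chain IGKV14-126.
IGHV11-2, KO and WT: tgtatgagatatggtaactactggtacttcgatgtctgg
IGHV11-2, WT, first variant: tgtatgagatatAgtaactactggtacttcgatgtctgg
IGHV11-2, WT, second variant: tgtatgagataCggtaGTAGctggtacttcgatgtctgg
IGHV11-2, WT, variant with GGGT: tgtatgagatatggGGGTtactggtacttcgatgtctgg
IGHV11-2, WT, variant with GGGG: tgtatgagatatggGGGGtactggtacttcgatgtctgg
IGHV11-2, KO, a longer junction: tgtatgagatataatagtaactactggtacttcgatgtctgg
The first sequence was found in 199 KO and 183 WT barcodes, of which 2 in KO and 2 in WT were dividing. The first variant differed by G13A, was found in 171 WT barcodes and had 3 dividing ones. The second variant differed by T12C, A17G, C18T, T19A and A20G and was found in 17 WT barcodes, 1 of them dividing. The variant with GGGT was found in 2 WT barcodes and that with GGGG in 1, and the longer KO junction in 5, with 1 dividing barcode each. The 2 dividing KO barcodes with the first sequence had a pair index of 5.49, and the 4 WT pairs with a shared heavy chain had indices of 2.29 to 2.96, so none of these pairs was near-identical.

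IGHV12-3, the other segment of this kind, was used by 0 of 32 KO heavy chains, which allows a share of up to 9.38%, and by 6 of 23 WT heavy chains. Of these 6 WT barcodes, 3 were of the B class, where the WT ratio of dividing to other was 2.14 (0.776 to 5.92), an interval that included 1. The rest were mixed, among them the barcode with 77 UMIs of the rule genes and 942 of Lyz2. The 6 junctions all differed, all had 42 bases, and 5 of 6 barcodes had the light chain IGKV4-91. The most frequent is shown beside one with another J segment.
IGHV12-3 with IGHJ1: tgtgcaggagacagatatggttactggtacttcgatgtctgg
IGHV12-3 with IGHJ3: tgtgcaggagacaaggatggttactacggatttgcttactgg
The first was found in 12 WT barcodes, of which the dividing one was of the mixed class, and the second in 1.

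KO heavy chains used more V segments and rested partly on clones seen in no other barcode. Dividing barcodes used 21 V segments over 32 heavy chains in KO and 10 over 23 in WT. The unequal number of chains was not corrected for. The IGHV1 family made up 16 of 32 in KO (50%, interval 31.9 to 68.1%) and 4 of 23 in WT (17.4%, 4.95 to 38.8%). Among other barcodes its share was 43.5% in KO and 40.0% in WT, so the KO share was near that of other KO barcodes. The KO count includes near-identical barcodes of IGHV1-26, IGHV1-52 and IGHV1-22. There were 25 clones among the 32 KO heavy chains and 20 among the 23 WT ones, so KO was not the more varied by clone. Of 6 KO clones with more than 1 dividing barcode, 5 were found in dividing barcodes alone, and these are among the near-identical groups described above. Another dividing barcode held the heavy-chain junction of the IGHV3-6 clone too, but was assigned a different heavy chain.
IGHV1-26, 3 barcodes: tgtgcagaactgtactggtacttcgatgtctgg
IGHV3-6, 2 barcodes: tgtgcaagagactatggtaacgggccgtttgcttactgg
IGHV1-52, 2 barcodes: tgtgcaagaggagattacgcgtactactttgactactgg
IGHV2-9-1, 2 barcodes: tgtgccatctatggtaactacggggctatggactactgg
IGHV1-22 with IgA, 2 barcodes: tgttcaagacaactcgaagcttactgg
In WT, 2 clones had more than 1 dividing barcode, 5 barcodes in all, and both are the large IGHV11-2 clones above. Clones of 2 or more barcodes held 18 of 32 KO dividing heavy chains (56.3%), against 65.9% of other KO barcodes, and 11 of 23 WT ones (47.8%), against 30.1% of other WT barcodes, a WT ratio of 1.59 (1.03 to 2.44). Clone size counts barcodes, and 82.8% of KO clones seen in exactly 2 barcodes were near-identical, against 30.4% in WT at greater depth. Both KO shares include such barcodes, among them the 5 clones listed above, and are not compared with WT.

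Constant regions were mainly IgM. IgM was found in 29 of 32 KO and 23 of 23 WT dividing heavy chains, IgA in 2 KO barcodes of 1 clone and IgD in 1 KO barcode. A lambda light chain was found in 3 KO and 3 WT barcodes. Taken by clone size, 0.273% of KO and 0.967% of WT barcodes in clones of 10 or more were dividing, 3 barcodes in KO and 7 in WT. The KO to WT ratio of these rates was 0.283 (interval 0.0734 to 1.09). It was 0.536 (0.178 to 1.61) for clones of 2 to 9 and 1.09 (0.506 to 2.36) for clones of 1, and each interval included 1.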

How the data were processed

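Gene expression counts were deposited as raw UMI counts per gene and barcode for 1 KO and 1 WT library, made with Cell Ranger 6.1.2 per the file headers. The submitters' processing notes give Cell Ranger 6.0.1 in its place, beside Seurat 4.3.0 and mm39. The BCR files, as deposited by the authors, list each contig's UMI counts, segments and CDR3. The labels name a 3′ expression kit. The targeted gene is not reported here, and the labels were not checked against it.

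Filters required 200 genes and less than 10% mitochondrial UMIs. Counts were summed over the barcodes of a class and library and scaled to CPM. Shares carry exact Clopper-Pearson intervals, CPM values exact Poisson intervals, CPM ratios exact conditional binomial intervals and ratios of shares log-normal intervals, all at 95%. A share of 0 is given with the limit that 3 counts allow. Calls were made for genes that reached 50 CPM on either side, in classes with 20 or more dividing barcodes, and gene lists used members at 10 CPM or more. Genes named are up to 5 members per list by level or ratio, the 10 highest and 10 lowest called ratios with UMIs in 20% or more of the barcodes, the rule genes and the class markers. The ranking skipped immunoglobulin, T-cell receptor segment, mitochondrial, ribosomal protein and predicted genes. The members, gene lists and rules were chosen with earlier results of these data known. Barcodes were joined to heavy chains by sequence within a genotype, taking the heavy chain with most UMIs, and a clone shares V, J and CDR3 nucleotides. Doublets were not removed in the main results. Scrublet in scanpy 1.11.5 marked 0 barcodes with its automatic threshold, so an alternative removed the highest scores at 0.8% per 1000 barcodes (17.3% of KO and 7.93% of WT barcodes). Barcode sequences present in both libraries numbered 293, with 0 among dividing ones. Promoter sequences came from RefSeq. The computations used Python 3.11.15, numpy 2.4.6, scipy 1.17.1 and pandas 2.3.3 and were tested on simulated data.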

Additional observations from a re-analysis of the deposited data

How the results depend on the processing

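No paired analysis was possible because each genotype had 1 library. For the main comparisons, 255 recomputed values stayed within their counting error or within 1.5 times the main count, 51 moved and 1 changed sign; the cause was not tested except where thinning removed barcodes by construction. The alternatives with 1 barcode per near-identical group, without Lyz2-high B barcodes, with thinned V-gene counts and with list medians at 5 UMIs were chosen after seeing the data. The dividing share was 0.829% in KO and 1.13% in WT at a threshold of 2 UMIs, 0.309% and 0.260% in KO and WT at 5 UMIs, 0.215% and 0.230% where each rule gene needed a UMI, and 0.181% and 0.106% after thinning to 2000 UMIs, with a KO to WT ratio of 1.70. With 1 barcode per near-identical group the KO share was 0.345%, where only dividing barcodes were grouped. With lineage genes at 1 UMI, 35% of KO dividing barcodes were mixed. At 2 UMIs the rates were 0.607% for KO B, 0.976% for WT B, 1.59% for KO T and 1.51% for WT T barcodes. At 5 UMIs they were 0.237% for KO B and 0.133% for WT B, with a WT T to B ratio of 4.24. Thinned, they were 0.0986% for KO B, 0.0155% for WT B and 0.328% for WT T, with T to B ratios of 7.50 in KO and 21.2 in WT. KO to WT calls in dividing B barcodes numbered 129 higher and 48 lower at a 20 CPM floor, 149 and 56 with no floor, and 31 higher after thinning. Calls of dividing against other at a 20 CPM floor numbered 265 higher and 58 lower in KO B and 141 and 72 in WT B. At 2 UMIs they were 89 higher in KO B, 32 higher in WT B and 9 lower in KO T, and at 5 UMIs 168 higher and 56 lower in WT B. KO T barcodes had 31 lower calls with median-ratio scaling and 11 with 1 barcode per group. The WT B mitotic list had a dividing to other median of 0.29 at a 50 CPM floor. At 5 UMIs the KO to WT medians were -0.31 (S phase, changed sign), 0.45 (mitotic), 0.38 (kinetochore), 0.36 (spindle) and -0.70 (MYC), and the WT B S-phase median of dividing to other was 3.88. The S to G2M ratio thinned was 0.435 in KO B, 0.823 in KO T, 1.08 in WT B and 0.737 in WT T, and 0.985 in KO B with 1 barcode per group. The WT dividing to other ratio of IGHV11-2 or IGHV12-3 was 2.38 at 2 UMIs. Of named genes, 337 values kept their call, 75 lost it and 2 changed sign: the KO to WT ratio of Lyz2 was 0.349 with likely doublets removed, and that of Id3, an inhibitor of helix-loop-helix factors, was 1.03 without Lyz2-high barcodes, against 0.373 with all. Depth limits any result on WT B barcodes, where 9 remain at 5 UMIs.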

Other observations

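Lists beyond the cell cycle gave smaller values in dividing B barcodes. The nucleotide synthesis list had a median log2 ratio of dividing to other of 0.85 in KO, with 18 of 20 measured members higher and 8 called, and 0.88 in WT, with 21 of 21 higher and 6 called. The checkpoint and DNA repair list had 26 of 27 higher in KO (median 1.22, 0 called) and 20 of 23 in WT (median 0.87, 1 called). MYC and mTORC1 targets were higher in dividing barcodes in 26 of 29 KO members (median 0.32, 1 called) and 29 of 30 WT members (median 0.57, 0 called), and nuclear genes of the respiratory chain in 18 of 22 KO members (median 0.25) and 19 of 22 WT members (median 0.31), with 0 called in either. The unfolded protein response list differed, with 16 of 18 higher in KO (median 0.38, 2 called) and 9 of 18 in WT (median -0.003, 0 called), and whether the libraries differ in this was not tested. In KO T barcodes the B-2 and follicular list, which holds several genes of resting lymphocytes, had 11 of 11 measured members lower in dividing barcodes, 3 of them called, with a median of -1.07.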
